A study of Mus musculus with 4 samples.

Results

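Genomic imprinting was examined through 48 mouse genes reported to be expressed mainly from 1 parental copy in at least some tissues or isoforms. The genes were taken from the count table by symbol, and 39 of the 48 had a row among its 13289 genes. The other 9, which are Airn, Calcr, Ddc, Dio3, Igf2, Peg13, Phlda2, Slc22a18 and Snurf, were not analysed here. The data are bulk RNA-seq of polyadenylated RNA from mouse cerebral cortex at embryonic day 15 (E15). There were 2 control libraries, titled WT, and 2 Lhx2 cKO libraries. cKO is read as conditional knockout, and Lhx2 encodes a LIM-homeodomain transcription factor of cortical progenitors. The labels used here give no Cre driver, floxed allele, strain, litter or sex, and they do not say whether the libraries of a group came from separate embryos. P-values therefore rest on the spread between these libraries, which may be technical. The fit takes that spread mostly from all genes together, so a gene's own replicates weigh little in its p-value.

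Imprinted genes lie in clusters in which a DNA methylation mark, set in the egg or the sperm and kept through development, decides which parental copy is read. Neighbours in a cluster can be read from opposite parental copies, and long noncoding RNAs often take part in silencing. Several of the genes act in fetal growth, and a number are abundant in the developing brain, where some switch to monoallelic expression. The genes were sorted from textbook knowledge into 18 analysed paternally expressed genes, 9 analysed maternally expressed genes and 12 analysed genes whose imprint depends on isoform or tissue. They fall in 20 clusters, of which 8 had at least 2 analysed genes, holding 27 of the 39, and 12 genes stood alone. Reads were counted per gene over both parental copies, so allelic expression was not measured here.

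Total counts per library ranged from 22294237 to 24609627, so that 3 counts, the floor used here, corresponded to 0.122 to 0.135 CPM (a count scaled for the library's total). Lhx2 itself was at 311 and 293 CPM in control, against 244 and 241 CPM in Lhx2 cKO. The Lhx2 groups did not overlap, and the log2 fold change was -0.31 (SE 0.0976, adjusted p 0.0191 in edgeR's quasi-likelihood test). That call was lost without control 1 (adjusted p 0.176), Lhx2 cKO 1 (0.102) or Lhx2 cKO 2 (0.0538), within a range of 0.00755 to 0.176 over the alternatives. The cortical markers Emx1 and Tbr1 were present in all 4 libraries. Emx1 was at 118 and 109 CPM in control, against 39.9 and 37.9 CPM in Lhx2 cKO, and fell (log2 fold change -1.54, edgeR adjusted p 2.00e-15). Tbr1 was at 235 and 247 CPM in control, against 257 and 249.5 CPM in Lhx2 cKO, and was not called. Of the 8 choroid plexus markers 0 were analysed here. Mitochondrial transcripts took 10.02% to 12.9% of the counts.

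Of the 39 imprinted genes, 11 (28.2%) differed between Lhx2 cKO and control and are said to be called, meaning that edgeR's quasi-likelihood test gave an adjusted p under 0.05. The share over all 13288 genes tested was 20.8%. The 6 genes that rose were Atp10a, Magel2, Inpp5f, Blcap, Meg3 and Snrpn, or 6 of 39 against 11.6% of all genes tested. The 5 genes that fell were Plagl1, Herc3, Peg10, Grb10 and Nnat, or 5 of 39 against 9.17% of all genes tested. The median log2 fold change of the 39 genes was -0.02, beside 0.003 for all genes tested. All 39 passed the filter on low counts, and their lowest count in a library was 18. The groups did not overlap in CPM for 23 of the 39 genes (59.0%), beside 57.5% of all genes tested. Reads of a bulk sample do not separate fewer cells that express a gene from less RNA per cell, and this holds for each change given here.

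Marker genes of several cell types moved in the same libraries, and their part in the changes of the imprinted genes was not tested. Of 10 microglia markers 9 rose, with sums of 132 and 137 CPM in control against 281 and 291 CPM in Lhx2 cKO. Interneuron markers, 7 of 8 analysed with 2 higher (Sst and Gad2), summed to 238 and 212 CPM against 295 and 273 CPM. Much of that rise was Sst, at 42.4 and 42.6 CPM in control against 84.7 and 92.8 CPM in Lhx2 cKO. Gad1 and Lhx6 had log2 fold changes of -0.07 and -0.06. Red blood cell markers, 7 of 8 analysed with 5 lower and 1 higher, summed to 3146 and 2405 CPM against 2192 and 1865 CPM. Of 6 hypothalamic markers 2 were analysed, and their sums were 1.87 and 2.04 CPM in control against 3.05 and 2.88 CPM in Lhx2 cKO, with neither called. No analysed marker was at 0 in any library.

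By parental class, 5 of the 18 paternally expressed genes were called (27.8%, beside 20.8% of all genes tested). Magel2 and Snrpn were higher and Plagl1, Peg10 and Nnat lower, and the median log2 fold change was -0.004. Of the 9 maternally expressed genes 1 was called (11.1%), Meg3, which was higher, and the median was 0.008. In edgeR 0 maternally expressed genes were called lower, 0 had an unadjusted p under 0.05 in that direction, and DESeq2 gave 0. With 9 genes, and 9.17% of all genes tested called lower, a count of 0 says little. Of the 12 genes with isoform- or tissue-dependent imprints, 5 were called (41.7%). Inpp5f, Blcap and Atp10a were higher and Herc3 and Grb10 lower, with a median of -0.04. Calls went in both directions among paternally expressed genes and among the isoform- or tissue-dependent ones.

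**Figure D1:**
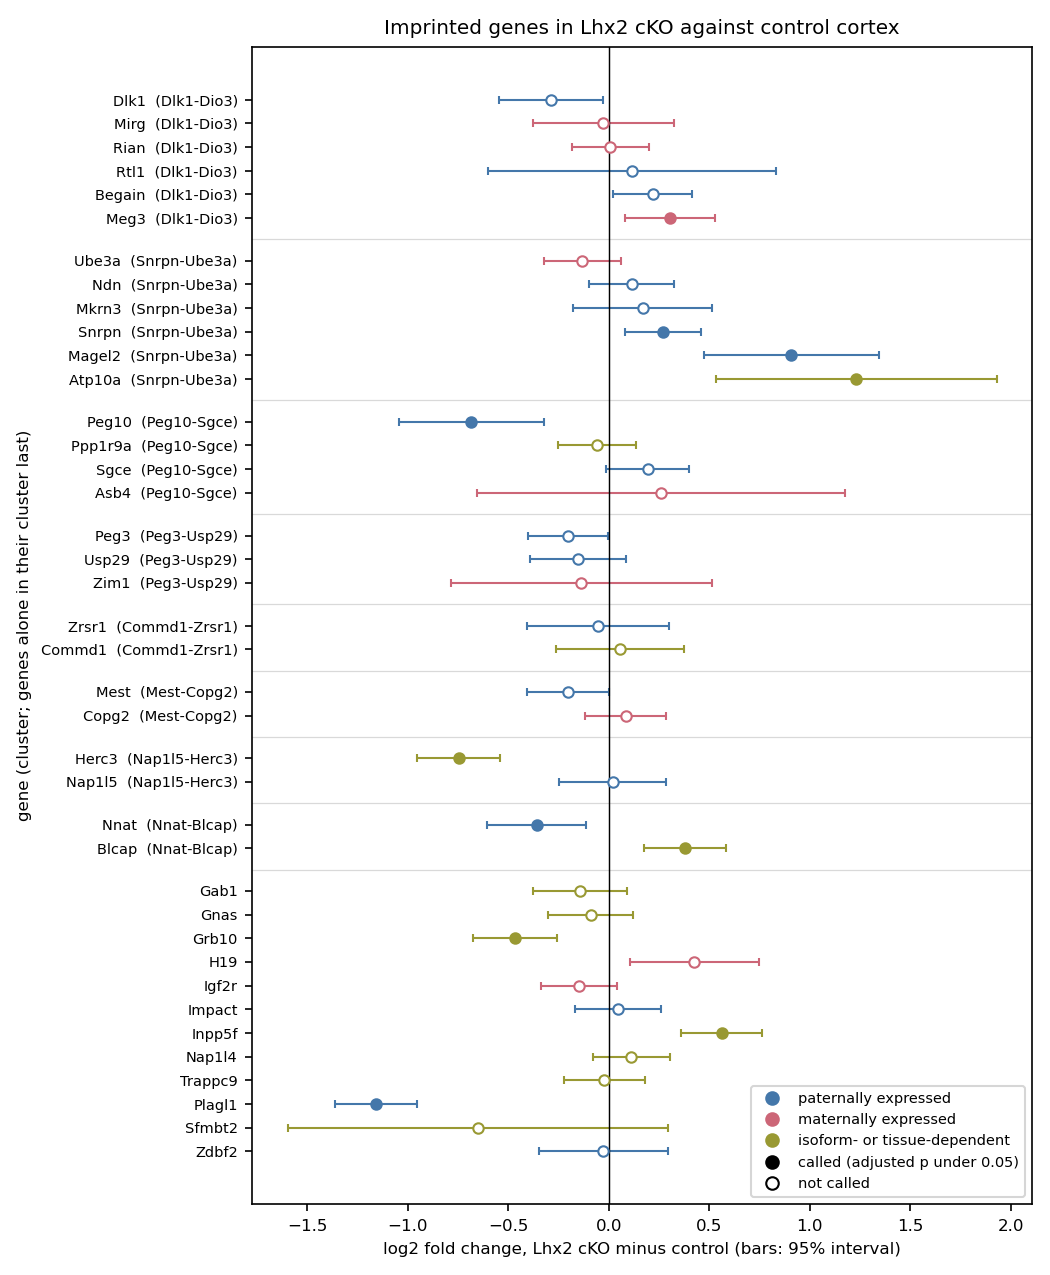
Change in Lhx2 cKO relative to control as log2 fold change (horizontal axis, points) with its 95% interval (bars) for the 39 analysed imprinted genes, arranged by cluster, with genes alone in their cluster at the bottom. Colour gives the parental class and filled points mark the 11 called genes, which run from -1.16 for Plagl1 to 1.23 for Atp10a.

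Levels differed widely among the genes when counts were scaled to gene length, as TPM (a level per gene length, scaled to the same sum in each library) over the analysed genes. Nnat, which encodes neuronatin, a small membrane proteolipid of the endoplasmic reticulum, stood far above the rest at 4412 TPM in control and 3292 TPM in Lhx2 cKO, rank 14 of 13289 genes by mean TPM. Ndn, the neuronal growth suppressor necdin, followed at 225 and 233 TPM. Snrpn at 154 and 178 TPM, Nap1l4 at 158 and 164 TPM and Meg3 at 134 and 160 TPM lay next. Sfmbt2, a Polycomb-group gene, was lowest at 0.479 and 0.292 TPM, and Asb4, Zim1, Rtl1 and, in control, Atp10a were near 1 TPM. The order of these low genes is not resolved: Rtl1 was at 1.12 ± 0.261 TPM and Zim1 at 1.17 ± 0.185 TPM in control (SD, n = 2). In CPM the 39 genes together took 0.564% and 0.547% of the counts in control and 0.519% and 0.522% in Lhx2 cKO. Nnat supplied 46.1% and 43.1% of the imprinted gene counts in control and 35.1% and 38.7% in Lhx2 cKO.

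**Figure D2:**
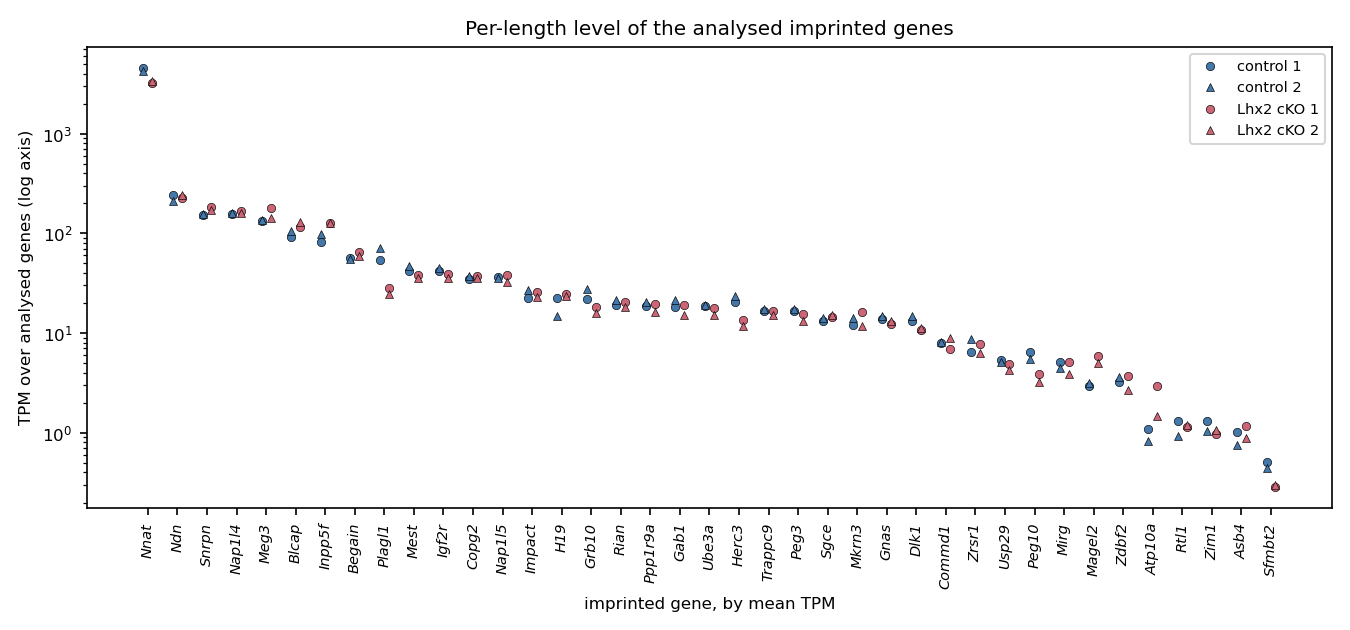
TPM of the 39 analysed imprinted genes in each library (vertical log axis; circles for replicate 1, triangles for replicate 2; blue for control, red for Lhx2 cKO), sorted by mean TPM. Nnat is at 4412 TPM in control and Sfmbt2 at 0.479 TPM, and Plagl1, with means of 62.1 TPM in control and 26.6 TPM in Lhx2 cKO, has its blue points above both red points.

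Among the genes that fell, Plagl1 changed most. It encodes a paternally expressed zinc-finger transcription factor (also called Zac1) known as a regulator of proliferation and of other imprinted genes. Plagl1 (ENSMUSG00000019817.19, chromosome 10) was at 131 and 166 CPM in control, against 68.5 and 63.6 CPM in Lhx2 cKO. Both Lhx2 cKO libraries lay far below both controls. The means were 149 ± 24.4 and 66.03 ± 3.48 CPM (SD, n = 2). The log2 fold change was -1.16 with an SE of 0.101 and an edgeR adjusted p of 6.31e-12, so that 44.8% of the control level remained. Across the 4 fits that each left out a library it ranged from -1.31 to -1.01. Phactr2, a gene next to Plagl1 with reported placental imprinting, also fell, from 9.91 and 11.5 CPM in control to 4.66 and 6.01 CPM in Lhx2 cKO (log2 fold change -0.98, adjusted p 2.36e-04 in edgeR).

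Markers of dividing cells were lower in the same libraries. Of 10 cell cycle genes 9 fell, with summed levels of 399 and 466 CPM in control and 276 and 262 CPM in Lhx2 cKO. Of 8 intermediate progenitor genes 6 fell, from 1007 and 1044 CPM to 679 and 672 CPM. Radial glia markers were mixed, with 4 of 10 lower and 1 higher and sums of 825 and 904 CPM against 822 and 760 CPM. The part of these cell types in the fall of Plagl1 was not tested.

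Herc3, an E3 ubiquitin ligase gene of the HERC family that is maternally biased in brain, fell from 59.0 and 64.6 CPM in control to 38.4 and 34.7 CPM in Lhx2 cKO. The groups were well apart, and the log2 fold change was -0.75 with an SE of 0.102 and an edgeR adjusted p of 3.48e-07. Nap1l5, a paternally expressed retrogene inside an intron of Herc3, was at 21.1 and 19.8 CPM in control and 21.7 and 19.5 CPM in Lhx2 cKO. Its libraries overlapped, and the 95% interval of its log2 fold change ran from -0.25 to 0.28. The ratio of Herc3 to Nap1l5 in TPM was 0.565 and 0.661 in control against 0.359 and 0.360 in Lhx2 cKO. The ratios of the groups did not overlap, but an exact permutation test of 2 libraries against 2 cannot go below p = 0.333 (two-sided), the value it gave.

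Grb10, an adaptor that restrains insulin and insulin-like growth factor receptor signalling, is read from the maternal copy in most tissues and from the paternal copy in neurons. It was at 61.7 and 76.2 CPM in control and at 51.99 and 47.1 CPM in Lhx2 cKO. The control libraries differed 1.24-fold from each other, yet both were above Lhx2 cKO. The log2 fold change was -0.47 with an SE of 0.103 and an edgeR adjusted p of 8.27e-04.

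**Figure D3:**
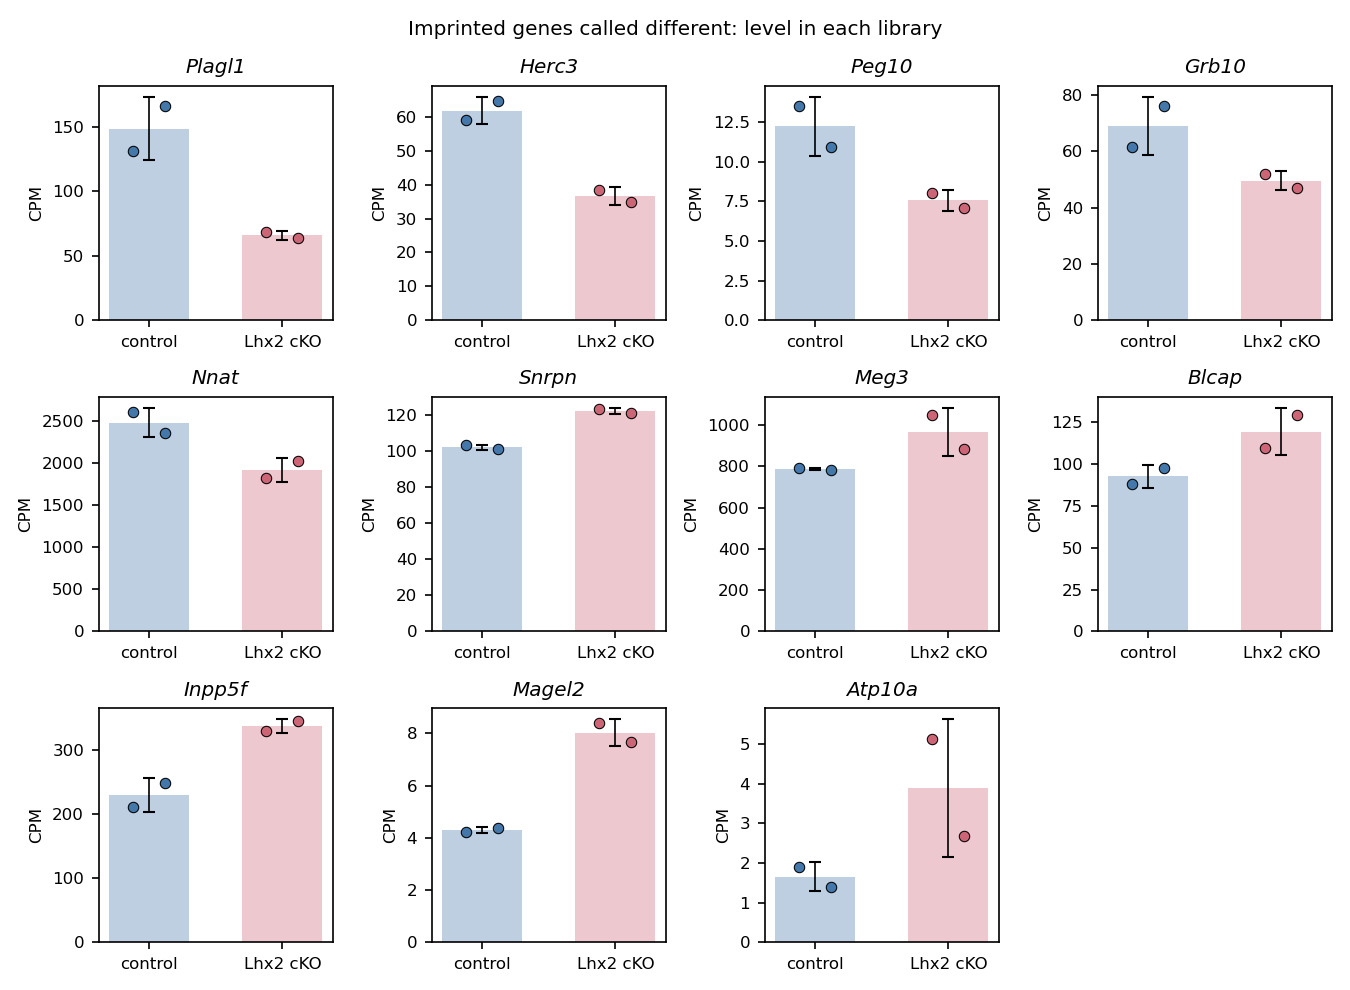
CPM of the 11 called imprinted genes in each library (points), with the mean (bars) and SD (error bars, n = 2) for control in blue and Lhx2 cKO in red, sorted from the largest fall to the largest rise. In each panel both red points lie on the same side of both blue points, and the points of Atp10a in Lhx2 cKO, 5.11 and 2.67 CPM, are the most uneven.

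The 300 bases around the annotated start (250 before and 50 after) are shown for the 5 called genes with the smallest p. Methylation at CpG sites near some starts carries or follows an imprint, and whether it does at these 5 was not examined. Sequences are from RefSeq, build GRCm38.p6, and capitals mark each CpG. They lie at chr10:13090582-13090881 (plus strand) for Plagl1, chr6:58833450-58833749 (plus) for Herc3, chr7:128611115-128611414 (plus) for Inpp5f, chr11:12037371-12037670 (minus) for Grb10 and chr7:62376729-62377028 (plus) for Magel2. Grb10 has 2 annotated starts and the more upstream is given; the other window holds 9 CpG sites.
Plagl1: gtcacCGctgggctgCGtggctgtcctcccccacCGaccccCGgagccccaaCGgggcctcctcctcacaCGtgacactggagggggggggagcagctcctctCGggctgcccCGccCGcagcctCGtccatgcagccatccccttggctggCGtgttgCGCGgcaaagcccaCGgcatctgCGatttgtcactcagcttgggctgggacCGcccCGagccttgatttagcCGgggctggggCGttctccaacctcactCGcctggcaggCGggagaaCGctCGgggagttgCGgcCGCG
Herc3: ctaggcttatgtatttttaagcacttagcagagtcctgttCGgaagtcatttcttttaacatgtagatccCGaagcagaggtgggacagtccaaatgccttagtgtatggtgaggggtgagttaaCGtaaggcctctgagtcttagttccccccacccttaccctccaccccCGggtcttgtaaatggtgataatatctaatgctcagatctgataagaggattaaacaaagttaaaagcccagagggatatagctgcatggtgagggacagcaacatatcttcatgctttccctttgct
Inpp5f: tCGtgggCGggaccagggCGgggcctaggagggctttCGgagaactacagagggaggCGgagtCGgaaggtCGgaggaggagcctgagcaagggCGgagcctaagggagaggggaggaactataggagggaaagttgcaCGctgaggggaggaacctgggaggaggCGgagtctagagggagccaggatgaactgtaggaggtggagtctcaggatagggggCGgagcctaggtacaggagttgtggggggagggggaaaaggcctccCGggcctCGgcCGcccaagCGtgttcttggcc
Grb10: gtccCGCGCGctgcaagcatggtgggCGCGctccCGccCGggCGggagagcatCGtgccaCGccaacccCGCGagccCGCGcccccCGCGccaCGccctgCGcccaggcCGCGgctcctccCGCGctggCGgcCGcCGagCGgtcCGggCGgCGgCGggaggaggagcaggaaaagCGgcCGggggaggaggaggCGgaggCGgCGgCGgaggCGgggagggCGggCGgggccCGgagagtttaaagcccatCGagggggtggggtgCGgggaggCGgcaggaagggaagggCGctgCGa
Magel2: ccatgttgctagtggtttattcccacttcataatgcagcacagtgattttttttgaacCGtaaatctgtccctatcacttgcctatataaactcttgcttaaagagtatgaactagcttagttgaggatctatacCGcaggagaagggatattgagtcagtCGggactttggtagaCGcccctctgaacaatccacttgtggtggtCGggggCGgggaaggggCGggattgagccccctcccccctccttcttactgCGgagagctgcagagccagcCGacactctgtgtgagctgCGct

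CpG sites numbered 45 in the 300 bases shown for Grb10 and 26 at Plagl1, and were 15 at Inpp5f, 10 at Magel2 and 4 at Herc3. The median was 17 over the 52 windows of the 32 imprinted genes in the table and 7 over all 32851 windows of that length. The hexamer TGCCGC, the motif of the imprint-protecting zinc-finger protein Zfp57, was searched on both strands. It was read as its reverse complement GCGGCA in the Plagl1 window, from base 161 of 300, and in the Grb10 window, from base 275, and was not in the Herc3, Inpp5f and Magel2 windows. It was in 12 of the 52 windows of imprinted genes (23.1%) and in 11.6% of all windows. The hexamer itself holds a CpG, and these shares were not matched for the number of CpG sites. Some genes also gave several windows, so the shares do not show an enrichment of the motif. Methylation was not measured, and a match is a description of the sequence.

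Nnat and Blcap share a cluster on chromosome 2 and changed in opposite directions. Nnat, paternally expressed, lies within an intron of Blcap, which encodes a small conserved membrane protein and has transcripts that differ in imprint. Nnat was at 2599 and 2358 CPM in control and at 1819.6 and 2019 CPM in Lhx2 cKO, which is -0.36 on the log2 scale with an SE of 0.122 and an edgeR adjusted p of 0.0304. Blcap was at 88.01 and 97.8 CPM in control and at 109 and 129 CPM in Lhx2 cKO, which is 0.38 on the log2 scale with an SE of 0.101 and an edgeR adjusted p of 0.0054. Neither gene overlapped between groups, although the lowest Nnat control and the highest Nnat Lhx2 cKO library were close. The Nnat call was lost without control 1 (log2 fold change -0.27, adjusted p 0.294) or Lhx2 cKO 1 (-0.25, 0.237), within a range of 0.00434 to 0.294. The Blcap call was lost without control 1 (0.32, adjusted p 0.0591) or Lhx2 cKO 2 (0.21, 0.294), within a range of 2.52e-04 to 0.294.

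Per length, the level of Nnat was 49.1 and 40.1 times that of Blcap in control and 27.7 and 25.96 times in Lhx2 cKO. Both Lhx2 cKO ratios were below both control ratios (exact permutation test, two-sided, p = 0.333, the smallest it allows). Of 8 neighbour ratios computed, 7 did not overlap between groups, but 6 of the 8 hold a called gene whose own groups did not overlap. That count therefore says little, and the 57.5% of all genes tested without overlap is of single genes in CPM, not of ratios. The ratio of Mest to Copg2, neither of them called, did not overlap, at 1.19 and 1.28 in control against 1.03 and 0.999 in Lhx2 cKO. The ratio of Peg3 to Usp29, neither of them called, overlapped, at 3.10 and 3.41 in control against 3.16 and 3.11 in Lhx2 cKO (exact p = 1.0). A list of 10 neuron markers was at 4868 and 4979 CPM in control and 5173 and 5207 CPM in Lhx2 cKO, with 3 higher and 2 lower. The part of cell composition in the changed ratio was not tested.

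**Figure D4:**
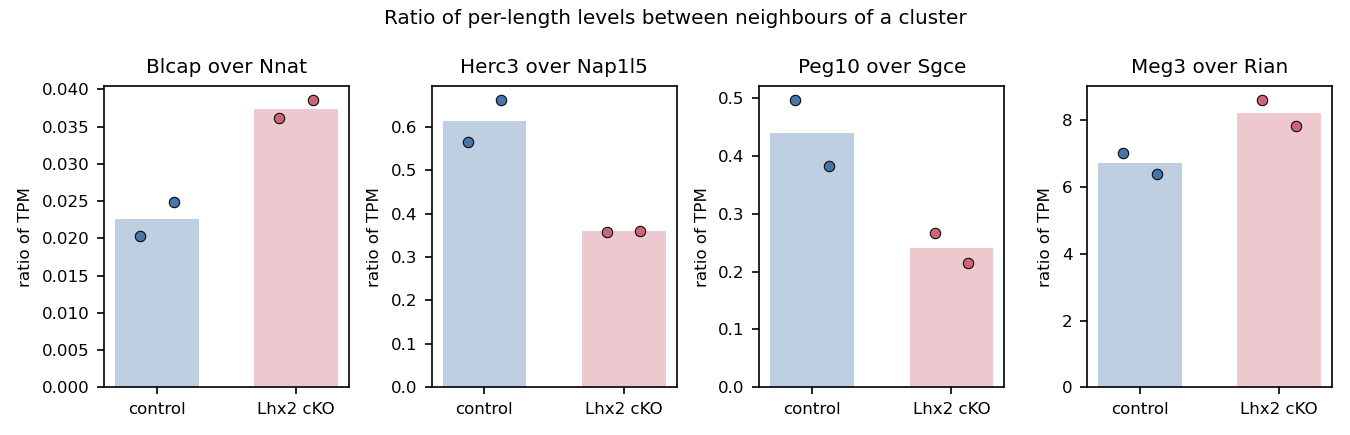
Ratio of TPM between neighbours of an imprinted cluster in each library (points; bars show the mean of 2 libraries), for Blcap over Nnat, Herc3 over Nap1l5, Peg10 over Sgce and Meg3 over Rian, with control in blue and Lhx2 cKO in red. In these 4 panels, chosen because each holds a called gene, the points of the groups do not overlap, with ratios of Herc3 to Nap1l5 of 0.565 and 0.661 in control against 0.359 and 0.360 in Lhx2 cKO.

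In the Prader-Willi and Angelman cluster on chromosome 7, 3 of 6 analysed genes were called higher, beside 11.6% of all genes tested. With 6 genes that count says little about the cluster. Magel2, a MAGE-family protein of endosomal recycling, rose from 4.23 and 4.38 CPM in control to 8.39 and 7.67 CPM in Lhx2 cKO. Replicates of Magel2 were tight and the groups far apart (log2 fold change 0.91 with an SE of 0.216 and an edgeR adjusted p of 0.00171). Snrpn, the neuronal spliceosomal protein SmN, was at 103 and 101 CPM in control and 123 and 121 CPM in Lhx2 cKO. Replicates were tight and the groups apart, though the difference was small (log2 fold change 0.27, SE 0.0944, edgeR adjusted p 0.0354). The SE draws on the spread of all genes, not of Snrpn alone. The call was lost in each of the 4 fits with a library left out, where the estimate was 0.23 to 0.30. Library totals in place of TMM also ended it (adjusted p 0.0606), and the range over the alternatives was 0.0276 to 0.188. Snrpn shares 34.1% of its exon bases with other annotated genes, among them Snurf on the same strand, so its counts are uncertain.

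Atp10a, a phospholipid flippase gene whose imprint in mouse brain is disputed, rose from 1.91 and 1.39 CPM in control to 5.11 and 2.67 CPM in Lhx2 cKO. The Lhx2 cKO libraries differed 1.92-fold from each other, at 114 and 63 counts. Atp10a had a log2 fold change of 1.23 with an SE of 0.346 and an edgeR adjusted p of 0.0081. The call was lost without Lhx2 cKO 1 (log2 fold change 0.73, adjusted p 0.282) and without control 2 (adjusted p 0.0694), within a range of 0.00107 to 0.282. In the same libraries 7 of 12 vascular markers rose and 1 fell, with sums of 314 and 372 CPM in control and 405 and 436 CPM in Lhx2 cKO. The part of vascular cells in the rise of Atp10a was not tested.

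The other 3 genes of that cluster were not called. Ndn was at 277 and 234 CPM in control and 256 and 293 CPM in Lhx2 cKO, with overlapping groups and a log2 fold change of 0.11 (95% interval -0.10 to 0.33). Mkrn3, a makorin ring-finger gene, had 0.17 (-0.18 to 0.51). Ube3a, the ubiquitin ligase of Angelman syndrome and the maternally expressed gene of the cluster, was at 120.4 and 119 CPM in control and 114 and 103 CPM in Lhx2 cKO. Its log2 fold change was -0.13 (-0.32 to 0.06), an estimate opposite in sign to those of the other 5 genes. That contrast in sign is not resolved, as the intervals of Ube3a, Ndn and Mkrn3 include 0. With a library left out, the estimate reached -0.0277 for Ndn and -0.0172 for Mkrn3. Of the exon bases of Ube3a, 27.3% overlap other genes, all on the other strand. The per-length ratio of Magel2 to Ndn was 0.0122 and 0.0149 in control against 0.0261 and 0.0209 in Lhx2 cKO, without overlap.

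In the Dlk1-Dio3 cluster on chromosome 12, Meg3, a maternally expressed long noncoding RNA abundant in neurons, was the 1 of 6 analysed genes that was called. It was at 791 and 783 CPM in control and at 1049 and 885 CPM in Lhx2 cKO. Control replicates were close and Lhx2 cKO replicates less so, and both Lhx2 cKO libraries were higher (log2 fold change 0.30 with an SE of 0.11 and an edgeR adjusted p of 0.0427). The call was lost without control 1 (0.33, adjusted p 0.134), control 2 (0.27, 0.219) or Lhx2 cKO 1 (0.21, 0.287), within a range of 0.011 to 0.287.

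Rian and Mirg are maternally expressed noncoding RNAs downstream of Meg3 on the same strand, and they host small nucleolar RNAs and microRNAs. Rian was at 189 and 206 CPM in control and 205 and 189.6 CPM in Lhx2 cKO, with overlapping groups and a log2 fold change of 0.01 (95% interval -0.18 to 0.20). Mirg had a log2 fold change of -0.03 (-0.38 to 0.32). The per-length ratio of Meg3 to Rian was 7.02 and 6.37 in control against 8.59 and 7.83 in Lhx2 cKO, without overlap. Mature microRNAs were not measured in these libraries.

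Of the paternally expressed genes of that cluster, Dlk1, a transmembrane relative of Notch ligands, was at 23.6 and 25.4 CPM in control and 18.97 and 20.8 CPM in Lhx2 cKO. The groups did not overlap, but the log2 fold change of -0.29 did not pass (SE 0.128, adjusted p 0.111 in edgeR). Begain, a synaptic scaffold-associated gene, was at 81.1 and 76.96 CPM in control and 94.1 and 88.7 CPM in Lhx2 cKO (log2 fold change 0.22, adjusted p 0.107). Rtl1, a gene derived from a retrotransposon, had 44 to 64 counts per library and an interval of -0.60 to 0.83.

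In the Peg10-Sgce cluster on chromosome 6, Peg10, another retrotransposon-derived and paternally expressed gene, fell from 13.5 and 10.9 CPM in control to 8.03 and 7.12 CPM in Lhx2 cKO. The groups were apart (log2 fold change -0.68 with an SE of 0.179 and an edgeR adjusted p of 0.00434), and without control 1 the call was lost (-0.51, adjusted p 0.135, within a range of 0.00108 to 0.135). Sgce, the paternally expressed epsilon-sarcoglycan gene that starts beside Peg10 on the other strand, was at 43.5 and 45.4 CPM in control and 48.1 and 52.6 CPM in Lhx2 cKO, and did not pass (0.19, adjusted p 0.195). The per-length ratio of Peg10 to Sgce was 0.495 and 0.383 in control against 0.266 and 0.215 in Lhx2 cKO, without overlap. Ppp1r9a, the actin-binding neurabin gene, had a log2 fold change of -0.06 (95% interval -0.25 to 0.14), and Asb4 had at most 32 counts per library and an interval of -0.66 to 1.18.

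In 3 further clusters edgeR called 0 genes. In the Peg3 cluster on chromosome 7, log2 fold changes were -0.20 for Peg3, a zinc-finger gene of maternal behaviour and growth (adjusted p 0.145), -0.15 for Usp29 and -0.14 for Zim1. Peg3 was at 71.3 and 72.1 CPM in control and 65.5 and 58.2 CPM in Lhx2 cKO, and was the 1 gene of the cluster with an unadjusted p under 0.05. Mest, a paternally expressed hydrolase-fold gene, was at 51.4 and 56.3 CPM in control and 46.7 and 46.1 CPM in Lhx2 cKO (-0.20, adjusted p 0.156, unadjusted p 0.0499). Copg2, a COPI coat subunit on the opposite strand, had 0.08 (95% interval -0.12 to 0.28), and 23.1% of the exon bases of Mest overlap Copg2. Commd1 had 0.06 (-0.26 to 0.37) and Zrsr1, a splicing-factor retrogene inside it, -0.05 (-0.41 to 0.30), with 0 unadjusted p under 0.05. DESeq2 also called 0 genes in these clusters.

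Of the 12 genes alone in their cluster, Plagl1 and Grb10 fell, as given above, and Inpp5f rose. Inpp5f, a phosphoinositide phosphatase gene with a paternally expressed brain isoform, was at 212 and 249.5 CPM in control and at 330.0 and 346 CPM in Lhx2 cKO. Both Lhx2 cKO libraries were well above both controls (log2 fold change 0.56 with an SE of 0.1 and an edgeR adjusted p of 3.81e-05), and the estimate ranged from 0.46 to 0.66 with a library left out. Gene-level counts do not separate the imprinted isoform from the others.

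H19, a maternally expressed long noncoding RNA of fetal growth, was at 18.5 and 11.6 CPM in control and 19.96 and 20.3 CPM in Lhx2 cKO. The control libraries differed 1.59-fold and control 2 stood below the other 3 libraries. The log2 fold change was 0.43 with an SE of 0.16 and an edgeR adjusted p of 0.0518 and did not pass. It was 0.82 without control 1 (adjusted p 3.18e-04) and 0.11 without control 2 (0.741), and the adjusted p ranged from 3.18e-04 to 0.741 over the alternatives. In DESeq2 it was 0.172, and with upper-quartile factors, library totals, the replicate block or limma-voom it was 0.0269 to 0.0325. H19 also passed without Lhx2 cKO 1 (adjusted p 0.0399). With the sums given above, vascular markers were lower and red blood cell markers higher in control 1 than in control 2. The 6 of 11 meningeal and fibroblast markers analysed summed to 56.8 and 62.7 CPM in control and 40.7 and 37.02 CPM in Lhx2 cKO. Of these 6 only Col1a1, a fibrillar collagen gene, was called. Col1a1 was at 25.4 and 23.6 CPM in control against 4.53 and 1.61 CPM in Lhx2 cKO, while Col1a2 and Col3a1 had log2 fold changes of 0.25 and 0.20. The part of these cell types in the level of H19 was not tested.

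Igf2r, the maternally expressed receptor that clears Igf2, was at 122 and 127 CPM in control and 114 and 109.5 CPM in Lhx2 cKO (log2 fold change -0.15, 95% interval -0.34 to 0.04). Trappc9 (-0.02, -0.22 to 0.18), Impact (0.04, -0.17 to 0.26), Nap1l4 (0.11, -0.08 to 0.30), Gnas (-0.09, -0.30 to 0.12), Gab1 (-0.14, -0.38 to 0.09) and Zdbf2 (-0.03, -0.35 to 0.29) were not called. Sfmbt2 had 18 to 36 counts per library and a log2 fold change of -0.65 with an interval of -1.60 to 0.30. Over all 28 genes not called, 21 had a 95% interval within 0.5 of 0 on the log2 scale, and 5 had an unadjusted p under 0.05: H19, Begain, Dlk1, Peg3 and Mest.

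A further list of 39 genes with reported imprints, many confined to placenta or to single studies, had 19 analysed. Of these, 4 were called (21.1%, beside 20.8% of all genes tested), and the median log2 fold change was -0.03. Smoc1, a secreted calcium-binding protein gene, rose (0.83, adjusted p 9.93e-09 in edgeR), as did Cd81, a tetraspanin gene (0.29, adjusted p 0.0302). The call of Cd81 was lost without control 1 (0.23, adjusted p 0.227) or Lhx2 cKO 2 (0.18, 0.383). Osbpl5, an oxysterol-binding protein gene of the Kcnq1ot1 cluster, fell (-0.68, adjusted p 2.23e-06), as did Phactr2. Cdkn1c, the maternally expressed inhibitor of cyclin-dependent kinases, was at 93.6 and 58.1 CPM in control and 72.6 and 59.0 CPM in Lhx2 cKO, with overlapping groups (-0.20, adjusted p 0.288).

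Of 25 genes that set or keep imprints, 22 were analysed, 5 (22.7%) fell and 0 rose in edgeR, beside 9.17% of all genes lower. In the higher direction 0 had an unadjusted p under 0.05, and DESeq2 also gave 0. The largest fall was that of Uhrf1, which brings the maintenance methyltransferase to replicated DNA. It was at 38.2 and 28.7 CPM in control and 16.8 and 16.5 CPM in Lhx2 cKO (log2 fold change -0.997, edgeR adjusted p 2.19e-07). Cell cycle markers fell in the same libraries, and the part of dividing cells in the fall of Uhrf1 was not tested. The other falls were Tet3 (-0.37), a DNA demethylase, Rbbp4 (-0.35), Atrx (-0.34) and Tet2 (-0.35). Dnmt1, the maintenance methyltransferase, had -0.12 (adjusted p 0.413), Trim28, the corepressor of imprint-protecting zinc-finger proteins, -0.18 (0.203), and Zfp57 -0.03 (0.889). With a library left out, 3 of the 22 were called lower in each of the 4 fits. Uhrf1 stayed called in all 4. Tet3 and Rbbp4 were lost without control 1 or Lhx2 cKO 1, and Atrx and Tet2 without control 2 or Lhx2 cKO 2, with adjusted p of 0.0636 to 0.419.

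In the authors' deposited table, 11 of the 39 genes have an adjusted p under 0.05, the same 11 as called here, beside 20.5% of all genes. That table marks 5 of them as up or down, beside 9.14% of all genes: Magel2 and Atp10a up, and Plagl1, Herc3 and Peg10 down. The largest difference between the authors' log2 fold change and the one fitted here was 0.01.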

How the data were processed

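Per the submitters' processing notes, Trim Galore, Subread, featureCounts and edgeR were used with build mm39; their roles, versions, the annotation and the use of strand are not given in the sources used here. The authors deposited raw read counts per gene, gene lengths in bases, a log2 fold change, a mean log2 CPM, a p-value, an adjusted p-value and its -log10, the last 5 with column names from the file header. Libraries were grouped by title.

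Here CPM used the total over the 13289 deposited genes, and TPM used the deposited lengths. edgeR 4.0.16 in R 4.3.3 was fitted to all genes (TMM, filterByExpr with its minimum of 10 counts, glmQLFit and glmQLFTest, no covariates), which removed 1 gene and tested 13288. The tests were two-sided, with Benjamini-Hochberg adjustment across the 13288 genes. SE is the absolute log2 fold change over the square root of F, and 95% intervals use the t distribution of the fit. The prior degrees of freedom, the weight given to the spread shared by all genes, were 38.7. Floors cover counting error only, as the labels name no molecular identifiers. Alternatives were RLE, upper-quartile and total scaling, other filters, a replicate block, DESeq2 1.42.0, limma-voom (limma 3.58.1), an adjusted p of 0.01 and each library left out. The fit was tested on simulated data.

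The imprinted genes, their classes, and the lists of other imprinted genes, imprint regulators and markers were chosen with earlier results of these data known. Named were Lhx2, each analysed imprinted gene and up to 6 called genes by smallest p from each of the other imprinted and regulator lists. Cdkn1c, Dnmt1, Trim28, Zfp57, Emx1, Tbr1, Col1a1, Col1a2, Col3a1, Sst, Gad2, Gad1 and Lhx6 were chosen after their values were seen. Exon overlaps come from GENCODE M21 (GRCm38) for all 39 genes. Over 10% of exon bases were shared with other genes for 7, so their counts are less certain. These were Snrpn, Ube3a, Mest, Gnas (22.0%), Copg2 (17.8%), Usp29 (14.8%) and Commd1 (11.9%). Promoter windows are RefSeq's, with 32 of 39 matched. The summed cortical marker list is not reported here.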

Additional observations from a re-analysis of the deposited data

How the results depend on the processing

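Of the 11 called imprinted genes, 10 stayed called under each of the 8 alternatives of scaling, filter, block or tool that kept all libraries and the threshold, the exception being Snrpn with library totals. With 1 library left out, the lone library of its group is assumed to vary like the others. Of the 11, 5 stayed called in each of these 4 fits (Plagl1, Herc3, Inpp5f, Grb10 and Magel2), and 0 of the 11 turned in sign; the groups did not overlap for these genes, so a kept sign says little. Calls ranged from 7 (without control 1) to 9, with 3 to 4 higher and 3 to 5 lower. For paternally expressed genes they ranged from 2 to 4, with 1 higher in each fit and 1 to 3 lower, and for maternally expressed genes from 0 to 1, all higher. An adjusted p of 0.01 gave 8 calls, 3 of them among paternally expressed genes (1 higher) and 0 among maternally expressed genes, and it ended the call of Lhx2 at -0.31. Library totals left 1 paternally expressed gene higher. Upper-quartile factors, library totals, the replicate block and limma-voom gave 2 maternally expressed genes called, both higher, with H19 added; the cause was not tested.

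Same-numbered libraries did not deviate together (correlation of replicate deviations 0.002 across 13288 genes), and the labels give no pairing beyond the number; the replicate block gave 12 imprinted genes called, 11 of them shared. The median of all genes was -0.0009 with RLE, -0.0071 with library totals and -0.0008 in DESeq2, and -0.0025 to 0.0022 with a library left out. That of paternally expressed genes ranged from -0.0737 to 0.0049 and Lhx2 from -0.38 to -0.25. Among lists whose alternatives were chosen after the data were seen, the other imprinted genes had 1 to 2 higher with a library left out and 1 at an adjusted p of 0.01, and regulators 3 lower in each fit. The sign turned for 12 genes, all not called. Rian was at -0.0021 with library totals. With a library left out the ranges were -0.336 to 0.0801 for Zim1, -0.0396 to 0.0447 for Rian, -0.18 to 0.13 for Mirg, -0.15 to 0.42 for Rtl1, -0.0277 to 0.257 for Ndn, -0.0172 to 0.329 for Mkrn3, -0.19 to 0.12 for Zdbf2, -0.218 to 0.0222 for Gnas, -0.0442 to 0.126 for Impact, -0.0534 to 0.0818 for Nap1l5, -0.22 to 0.29 for Commd1 and -0.23 to 0.14 for Zrsr1. Depth limits Sfmbt2, Asb4, Zim1 and Rtl1, each under 100 counts in all libraries.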

Other observations

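Replicates of a group differed most for low genes and for H19. The ratio of the higher to the lower library was 1.92 for Atp10a in Lhx2 cKO, 1.59 for H19, 1.45 for Rtl1, 1.40 for Asb4 and 1.37 for Atp10a in control. It was at most 1.02 in both groups for Snrpn, Nap1l4 and Copg2. Control 2 was the higher control for Plagl1, Grb10, Herc3 and Inpp5f, and the lower one for H19, Nnat, Ndn, Peg10 and Atp10a.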
